A study of Mus musculus and Oryctolagus cuniculus and Sus scrofa with 20 samples.

Results

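miR-741 is an X-linked mouse microRNA (miRNA) read here from both arms of its hairpin, miR-741-3p and miR-741-5p, 2 of the 1667 mature mouse miRNA entries that could be told apart by their first 18 nt. Its reads were taken from deposited lists of distinct small RNA sequences with their read counts: a sequence of 18 to 26 nt belonged to an arm when it began with the same 18 nt as that mature arm. Sequences of that length lying exactly in the hairpin were taken as well where the 5′ end was described. Together the 2 criteria gave 79 (control SSC) to 182 (leptotene) distinct miR-741 sequences in each of 8 wild type mouse libraries, out of 181473 and 863321 distinct sequences. The miR-741 knock-out lines made with TALEN and with CRISPR held 1 and 3.

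The series asks how an X-linked miRNA family behaves in mammalian male germ cells, with 20 small RNA libraries, 10 of them from mouse. The 7 libraries of the stage series are wild type and labelled C57BL/6: cultured spermatogonial stem cells (SSCs), pre-leptotene and leptotene spermatocytes of postnatal day 9, zygotene spermatocytes of day 13, pachytene spermatocytes and round spermatids of day 25, and mature sperm with no age given. The other 3 are cultured SSCs labelled C57BL/6 x DBA2 F1, day 15: a wild type control, a TALEN line and a CRISPR line. The F1 donor is described as 1 male that carried an actin-EGFP transgene, the cells grew on mouse embryonic fibroblast feeders, and each knock-out line is a picked colony. The remaining libraries are rabbit testis at 8 ages, adult pig testis and adult rat testis. Every group is 1 library, so each comparison is between libraries and has no replicate check. Intervals are 95% and cover counting error only, with each read taken as independent. The reads carry no molecular identifiers, so amplified copies cannot be told apart and the intervals may be too narrow.

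A miRNA is cut from a hairpin by Drosha and Dicer, and 1 strand of the resulting duplex is usually kept in an Argonaute protein while the other is lost. Target choice rests mainly on the seed, bases 2 to 8, so a shifted 5′ end gives the same hairpin another seed, whereas changes at the 3′ end leave the seed intact. miR-741 belongs to the X-linked miR-506 family, a cluster known for expression in the testis.

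The Mir741 hairpin (RefSeq, GRCm38.p6) lies at chrX:66796805-66796875 on the minus strand and is 71 nt long. It is shown whole, with the mature arms in capitals, because every sequence described is cut from it.
Mir741 hairpin: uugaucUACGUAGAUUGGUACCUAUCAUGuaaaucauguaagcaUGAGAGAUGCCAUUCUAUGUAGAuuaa
The 5p arm covers hairpin positions 7 to 29 (chrX:66796847-66796869) and the 3p arm positions 45 to 67 (chrX:66796809-66796831). The predicted fold had 26 base pairs and a minimum free energy of -31.3 kcal/mol, and left a 3′ overhang of 2 nt at both ends of the arm duplex. The nearest other miRNA hairpins in the table were Mir463, 2347 nt away, Mir880 at 3654 nt and Mir471 at 4143 nt.

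The mature arms and the 3p forms with a shifted start are given 5′ to 3′ with the seed in capitals, because the start decides the seed.
miR-741-3p: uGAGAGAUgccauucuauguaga
miR-741-3p start +1: gAGAGAUGccauucuauguaga
miR-741-3p start +2: aGAGAUGCcauucuauguaga
miR-741-5p: uACGUAGAuugguaccuaucaug
None of the 4 seeds was shared by another mature mouse miRNA in the RefSeq table of 1738 mature sequences.

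The libraries differed widely in depth and in how much of them was miRNA. The stage libraries held 12247017 to 25908109 reads and the knock-out experiment 597732 to 1449449. Reads assigned to miRNAs made up 28.9% of SSC reads, 51.4%, 44.0% and 32.8% of the pre-leptotene, leptotene and zygotene reads, 2.04% of pachytene reads, 3.04% of round spermatid reads and 15.5% of mature sperm reads. Levels are therefore given as reads per 1000000 reads of the library (RPM) and as reads per 1000000 miRNA reads (miRNA RPM). The labels were set against marker miRNAs. Of the late spermatocyte and spermatid list 2 of 3 members matched, and miR-34c-5p had no entry. miR-449a-5p stood at 3892 and 4452 miRNA RPM in pachytene and round spermatid libraries and at 1.62 to 110 in the other mouse libraries. The values of miR-34b-5p were much lower, 119 and 163 miRNA RPM in those libraries and at most 10.1 (TALEN line) in the others. The pluripotency-linked miR-290 to miR-295 list (5 of 5 members matched) summed to 1643 to 2444 miRNA RPM in the 4 SSC libraries and to 36.1 to 209 in the others.

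Among the 1667 mature entries, miR-741-3p was the most abundant in 6 of the 8 wild type libraries, second in round spermatids and ninth in mature sperm. Any miRNA without an entry, miR-34c-5p among them, was left out of this ranking. The level of miR-741-3p was 35102 RPM in SSCs. Pre-leptotene, leptotene and zygotene spermatocytes had 177492, 158205 and 87043 RPM, and pachytene spermatocytes, round spermatids and mature sperm had 2688, 2929 and 3354 RPM. The 3 libraries from pachytene on were thus low and the 3 early spermatocyte libraries high, with SSCs between them. The same 7 libraries, in that order, gave 121256, 345259, 359772, 265311, 131968, 96333 and 21626 miRNA RPM. On that scale pachytene stood near SSCs and mature sperm alone was far below the rest. In such bulk RNA, fewer cells with the miRNA and less of it per cell cannot be told apart. The order of pre-leptotene and leptotene changed with the scale, as did that of the last 3 stages. These levels rest on 61238 to 2337545 reads, so their counting error is far smaller than what scaling changes; in pachytene, with the fewest miR-741-3p reads of the 7, the interval ran from 2666 to 2709 RPM.

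**Figure D1:**
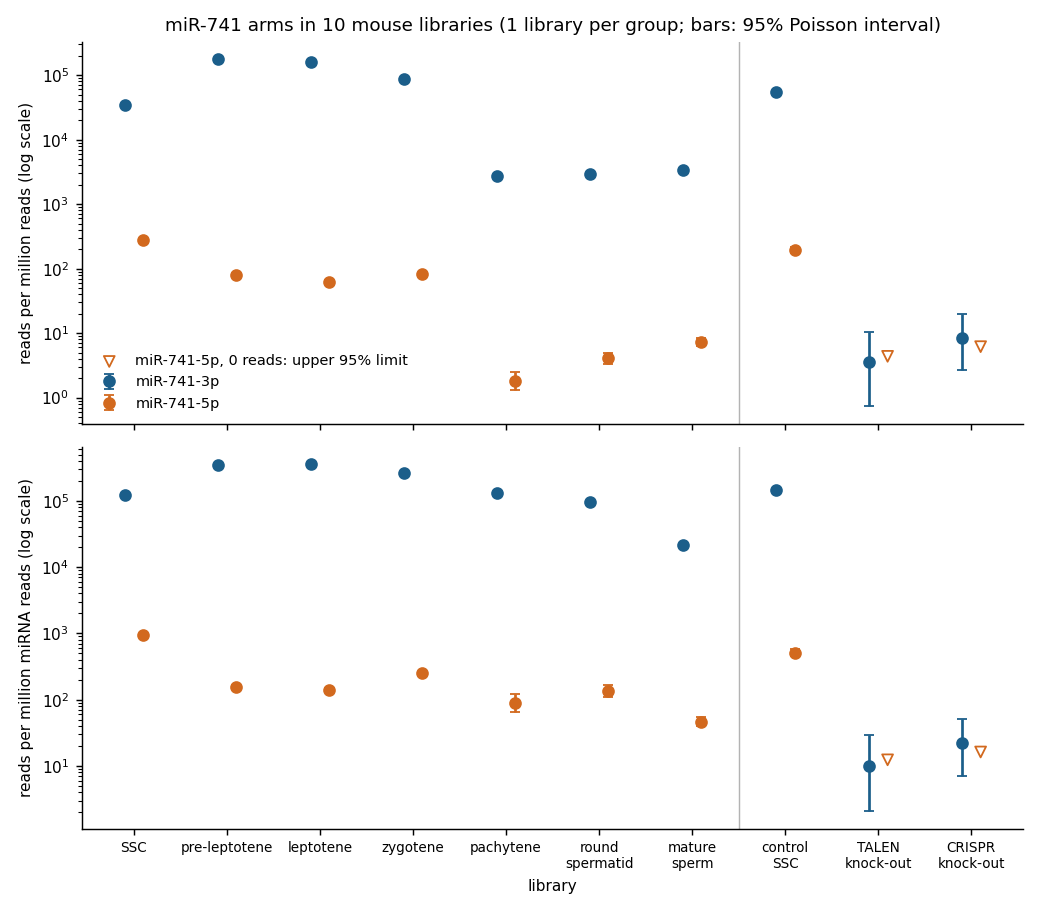
Level of miR-741-3p (blue) and miR-741-5p (orange) in 10 mouse libraries, in RPM (upper) and miRNA RPM (lower), both on log axes with 95% Poisson intervals and 1 library per point. The 3p arm falls from 87043 to 2688 RPM between zygotene and pachytene and from 265311 to 131968 miRNA RPM, and both knock-out lines hold at most 8.36 RPM against 55260 in the control.

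From SSCs to pre-leptotene spermatocytes miR-741-3p was higher by 2.34 on the log2 scale in RPM (interval 2.33 to 2.34), from 712660 reads to 2337545, and by 1.51 in miRNA RPM. At least 2-fold higher at this step were 15% of 333 miRNAs with at least 100 reads in either library on the first scale, and 7.81% on the second. Of those 333, 17 rose more than miR-741-3p did. Of 27 measured members of the miR-506 family list, 5 were 2-fold higher and 4 lower in RPM, with a median log2 change of -0.18, beside -1.43 over all miRNAs. The family ran from -2.35 for miR-463-3p to 5.10 for miR-547-3p, and miR-871-3p went from 23559 to 93358 RPM. The fibroblast or stromal list (3 of 5 members matched) summed to 16835 miRNA RPM in SSCs and 1301 in pre-leptotene; its part in the change was not tested. SSCs were cultured and spermatocytes came from testes, so culture and stage cannot be told apart at this step.

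Pre-leptotene and leptotene differed little, by -0.17 on the log2 scale in RPM and 0.06 in miRNA RPM. Among 212 miRNAs 1.42% were 2-fold lower on the first scale and 0.472% on the second, and 0 of 27 family members passed 2-fold either way. From leptotene to zygotene miR-741-3p changed by -0.86 in RPM and by -0.44 in miRNA RPM, neither past 2-fold. Here 2.93% of 239 miRNAs were 2-fold lower, or 0.837% in miRNA RPM. Only 10 of the 239 fell more than miR-741-3p, while the median miRNA changed by 0.27 and the median family member by -0.19 in RPM. The Sertoli or gonadal list (miR-202-5p and miR-202-3p) summed to 137 miRNA RPM in leptotene and 2991 in zygotene, and its part in the difference was not tested.

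In RPM the largest difference between consecutive stages was from zygotene to pachytene, -5.02 (interval -5.03 to -5.01). It was not the largest in miRNA RPM (-1.01, against -2.16 from round spermatids to mature sperm) or with median-of-ratios size factors (-0.85, against 2.92 from SSCs to pre-leptotene). In RPM it was shared by most miRNAs: 93.1% of 247 were at least 2-fold lower, all 26 measured family members among them, and the median over all was -4.52. In miRNA RPM 38.5% of miRNAs and 7 of 26 family members were 2-fold lower, with medians of -0.51 over all and -0.57 in the family. The miRNA share of reads went from 32.8% to 2.04% between the same libraries, and the change in RPM moves with it.

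From pachytene to round spermatids miR-741-3p changed by 0.12 in RPM and by -0.45 in miRNA RPM, and with median-of-ratios size factors by 0.00 (-0.0033, interval -0.02 to 0.01). In the same pair 20.2% of 129 miRNAs were 2-fold higher in RPM and 11.6% in miRNA RPM, and 0 of 22 family members were 2-fold higher on either scale. From round spermatids to mature sperm it changed by 0.20 in RPM, where 77% of 204 miRNAs and 18 of 24 family members were 2-fold higher. In miRNA RPM it fell by 2.16, where 35.8% of miRNAs and 1 of 24 family members were 2-fold higher and 8 members 2-fold lower. On both scales 36 of the 204 miRNAs lay below it, and within the family miR-871-3p fell furthest, by 1.54 in RPM. The epithelial marker list (5 of 5 matched) summed to 13942 miRNA RPM in mature sperm and to 126 to 594 in the other 9 mouse libraries, and the blood list to 1193 in mature sperm and at most 30.2 elsewhere; their part in the sperm values was not tested.

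miR-741-3p alone supplied 30.8% of all family reads in the SSC library and 30.3% in mature sperm, the lowest of the series. Between them the share was 51.6% (pre-leptotene), 53.8% (leptotene), 49.4% (zygotene), 43.1% (pachytene) and 46.2% (round spermatid). This share compares sequences within a library and does not depend on the scaling. The entry next to it in rank was miR-871-3p of the same cluster in 7 of the 8 wild type libraries, at 93358 RPM in pre-leptotene and 1829 in pachytene. In mature sperm its neighbours were miR-26a-5p above and let-7f-5p below.

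Of 172 miRNAs with a mean of at least 100 miRNA RPM, the profile most like that of miR-741-3p over the 7 stage libraries was that of miR-471-3p (Pearson's r = 0.97 on log2 values), followed by miR-871-3p (0.97), miR-365-3p (0.94), miR-339-3p (0.92) and miR-362-5p (0.91). The first pair are family members, with miR-471-3p going from 925 miRNA RPM in pre-leptotene to 44.6 in mature sperm. All 7 points share their library and its scaling, so these are descriptions over 7 libraries. The partner arm miR-741-5p came 55th, at r = 0.41.

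miR-741-5p was a minor product throughout. It had 5646 reads in SSCs and 282 in control SSCs. There were 1069, 754 and 1248 reads in the pre-leptotene, leptotene and zygotene libraries, and 42, 96 and 188 in the pachytene, round spermatid and mature sperm ones. That was 278 RPM in SSCs, 61.6 to 81.5 RPM in the 3 early spermatocyte libraries, and 1.84, 4.08 and 7.26 RPM in the last 3 stages. In miRNA RPM the 7 stages, in that order, gave 961, 158, 140, 248, 90.5, 134 and 46.8. SSCs had the most of this arm on both scales, unlike the 3p arm, which was highest in pre-leptotene (RPM) or leptotene (miRNA RPM). Both arms were lowest in pachytene in RPM and in mature sperm in miRNA RPM.

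Of the reads of both arms the 5p arm made up 0.786% in SSCs (Clopper-Pearson interval 0.766 to 0.807) and 0.0457% in pre-leptotene (0.0430 to 0.0485). Leptotene and zygotene gave 0.0389% and 0.0935%, and pachytene 0.0685% (0.0494 to 0.0926). Round spermatids had 0.139% and mature sperm 0.216%. Control SSCs gave 0.351%. The 2 SSC libraries were therefore the highest of the 8, and they differed from each other beyond counting error. The step from SSCs to pre-leptotene ran in opposite directions in the arms: miR-741-5p changed by -1.78 on the log2 scale in RPM (interval -1.87 to -1.68) and by -2.61 in miRNA RPM while miR-741-3p was higher on both scales. Among other hairpins with both arms annotated and at least 1000 reads in all, the median share of the minor arm was 1.34% over 134 hairpins in SSCs, 0.680% over 89 in pre-leptotene and 0.103% over 91 in mature sperm. The miR-741 share lay below that median in 7 of the 8 libraries and above it in mature sperm.

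The 5 most abundant sequences of each arm show where its ends lie. Capitals mark a base that the hairpin does not encode.
3p form 1: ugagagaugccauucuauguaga
3p form 2: agagaugccauucuauguaga
3p form 3: ugagagaugccauucuauguag
3p form 4: ugagagaugccauucuauguagaA
3p form 5: gagagaugccauucuauguaga
5p form 1: uacguagauugguaccuaucaug
5p form 2: uacguagauugguaccuauc
5p form 3: uacguagauugguaccuaucau
5p form 4: uacguagauugguaccuauca
5p form 5: uacguagauugguaccuaucaugu
With each stage library scaled to the same total of reads, 3p forms 1 to 5 held 78.5%, 11.0%, 3.22%, 2.46% and 2.37% of 3p reads, and 5p forms 1 to 5 held 44.7%, 21.8%, 13.7%, 6.29% and 3.64% of 5p reads. Libraries rich in miR-741 thus count most in these shares. The 3p arm was read mostly as its annotated 23 nt sequence, whereas the 5p arm had a mixed 3′ end, with a 20 nt form behind the 23 nt one.

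The annotated 3p sequence itself, exact from end to end, made up 73.9% of the 3p reads of SSCs and 70.2% of those of control SSCs. From pre-leptotene to pachytene it was 80.4%, 79.5%, 77.3% and 72.0%. Round spermatids had 51.0% (interval 50.6 to 51.3) and mature sperm 39.0% (38.7 to 39.3). In round spermatids and mature sperm other forms took about as many or more reads than the annotated one.

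The second most abundant 3p sequence of the scaled stage libraries begins 2 nt inside the annotated start. Form 4 had more reads than it in round spermatids (16741 against 8109), and in mature sperm forms 3 and 4 did (24580 and 12437 against 11619). Among 3p reads lying exactly in the hairpin, this +2 start made up 17% in SSCs and 20.6% in control SSCs. The 4 spermatocyte libraries had 10.8% (pre-leptotene), 11.4% (leptotene), 12.4% (zygotene) and 12.1% (pachytene), round spermatids 15.0% and mature sperm 17%. It was lowest in pre-leptotene and highest in the SSC and sperm libraries. The +1 start between them stayed at 2.13% to 2.60% in 7 libraries and was 4.35% in mature sperm. Every other 3p start held at most 0.0615%. The 5p arm began at its annotated base in 98.5% (control SSC) to 100% of its reads.

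Such a start was rare among most other miRNAs. Among other miRNAs with at least 1000 reads that could be placed by the same rule (36 to 143 per library), the median share starting at +2 was at most 0.00585%. No other miRNA exceeded miR-741-3p in 7 of the 8 libraries; in SSCs miR-298-5p did, at 18.4%. In those 7 libraries the highest of the others was a member of the same family. It was miR-883a-5p in pre-leptotene (3.18%), leptotene (3.79%) and zygotene (6.12%). In pachytene (1.15%), round spermatids (0.841%), control SSCs (2.65%) and mature sperm (15.0%) it was miR-871-3p. In amount, the +2 form of miR-741-3p reached 21322 RPM in pre-leptotene and 355 in pachytene. Counted as an entry of its own, it would have ranked from the fourth place in pre-leptotene and leptotene to the 31st in mature sperm. Its seed, GAGAUGC, is the one shown above for this form.

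**Figure D2:**
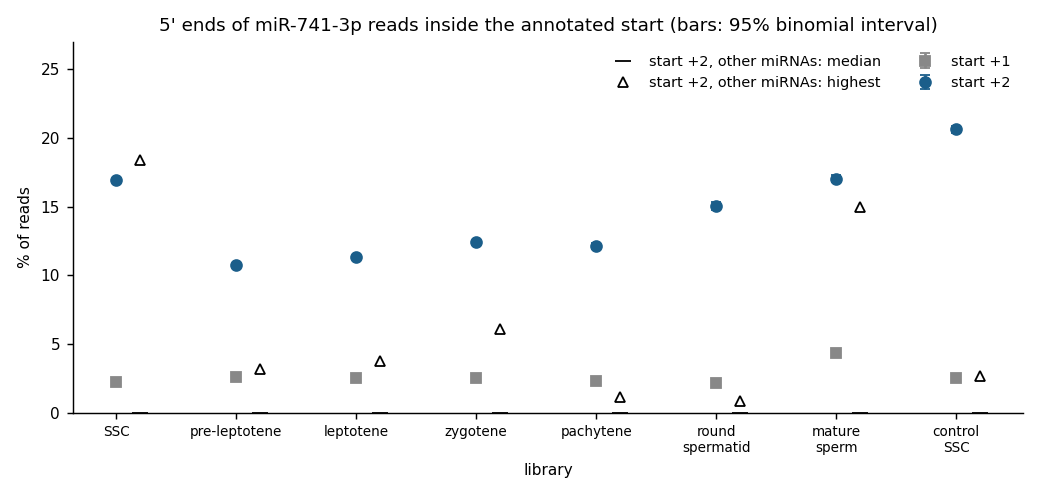
Share of miR-741-3p reads that begin 1 nt (grey squares) or 2 nt (blue circles) inside the annotated 5′ end, in 8 mouse libraries, with 95% binomial intervals; dashes and open triangles give the median and the highest +2 share of other miRNAs with at least 1000 reads. The +2 share runs from 10.8% in pre-leptotene to 20.6% in control SSCs, and another miRNA exceeds it in the SSC library.

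At the 3′ end of reads with the annotated start, lengths were concentrated at 23 nt in early stages and spread later. Reads of 23 nt were 91.1% to 93.1% of the total in the 4 libraries from SSCs to zygotene and 84.5% in pachytene. Round spermatids had 59.7% and mature sperm 49.8%. The shift went to longer reads in round spermatids, where 24 nt reads were 26%, against 7.12% in pachytene and 3.53% in pre-leptotene. In mature sperm it went both ways: 28.6% were 22 nt and 16.3% were 24 nt. The mean length stayed within 22.96 to 23.24 nt in these 8 libraries, so the mean did not show the change.

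**Figure D3:**
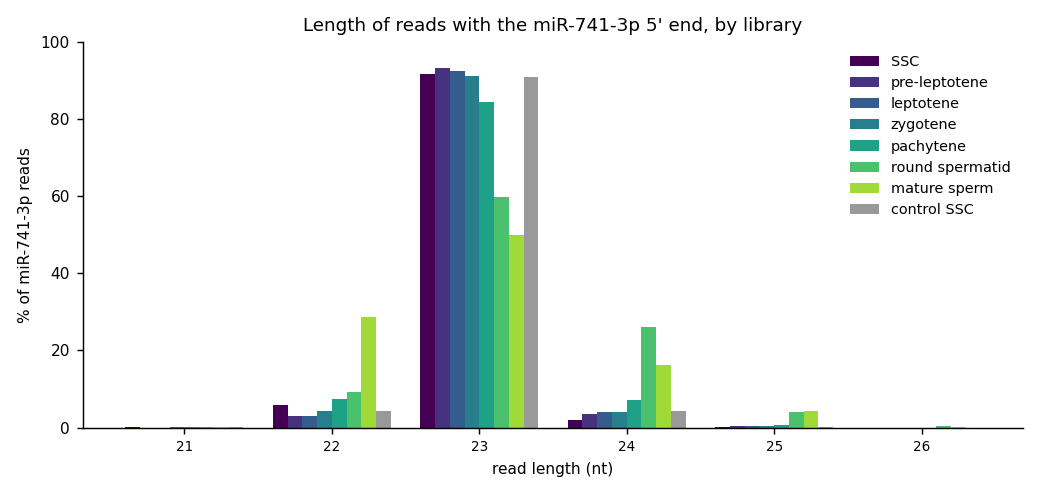
Share of miR-741-3p reads of each length from 21 to 26 nt in 8 mouse libraries, as bars (stages from dark to light, control SSCs in grey). The 23 nt bar falls from 93.1% in pre-leptotene to 59.7% in round spermatids and 49.8% in mature sperm, with 24 nt reads at 26% in round spermatids and 22 nt reads at 28.6% in mature sperm.

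Most of the 24 nt reads carried an A that the hairpin does not encode, where the next base would be U. An A added to a read that ends 1 nt short equals the hairpin base and is not seen as a tail. Non-templated 3′ A is a known modification of mature miRNAs, added by terminal nucleotidyl transferases. Reads of miR-741-3p with such an A tail were 1.90% of its reads in SSCs and 4.04% in control SSCs. From pre-leptotene to pachytene they were 2.67%, 3.0%, 3.02% and 5.21%. They reached 28.3% in round spermatids (19521 of 68987 reads, interval 28.0 to 28.6), and in mature sperm 18.4% (18.1 to 18.7). Round spermatids and mature sperm stood far above the other 6 libraries. A single A made up 24.5% of reads in round spermatids, a pair of A 3.45% and a run of 3 A 0.339%. Tails called as U were 0.237% in SSCs to 2.56% in mature sperm, below the median of other miRNAs in every one of the 8 libraries. Because the hairpin goes on with U after the annotated 3p end, a U added there counts as encoded. Reads that ended 1 nt past the annotated end were 0.291% in SSCs to 2.10% in pachytene. The called share therefore cannot show whether U tails were rarer than on other miRNAs.

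Most other miRNAs carried fewer A tails in the late stages. With at least 1000 reads required, the median A tail share was 1.92% over 50 other miRNAs in round spermatids, none of which exceeded miR-741-3p; miR-100-5p was nearest at 27%. In pachytene 3 of 39 others lay above it, in mature sperm 3 of 97 and in SSCs 74 of 151. Between pachytene and round spermatids the share was higher by 23.1 percentage points for miR-741-3p. Of 37 other miRNAs measured in both, 31 were also higher, with a median of 0.933 points and none with a larger rise. This comparison was chosen after the shares had been seen and is a description of 2 libraries.

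Within the family A tails differed among members. The joined entry of miR-465a-3p, miR-465b-3p and miR-465c-3p stood at 6.25% in pachytene, 19.0% in the round spermatid library and 40.8% in sperm. A share of 13.2% in round spermatids and 8.94% in sperm was read for miR-743a-3p. For miR-871-3p the shares at the 3 stages were 1.05%, 2.42% and 1.38%. All 9 family members measured in both pachytene and round spermatids were higher in the latter, as were 31 of the 37 other miRNAs. Some of these differences were small, such as 0.356% against 0.456% for miR-465c-5p. High shares were not limited to late stages. In pre-leptotene, leptotene and zygotene miR-470-3p had 37.7%, 44.5% and 47.0%, the highest share in each.

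**Figure D4:**
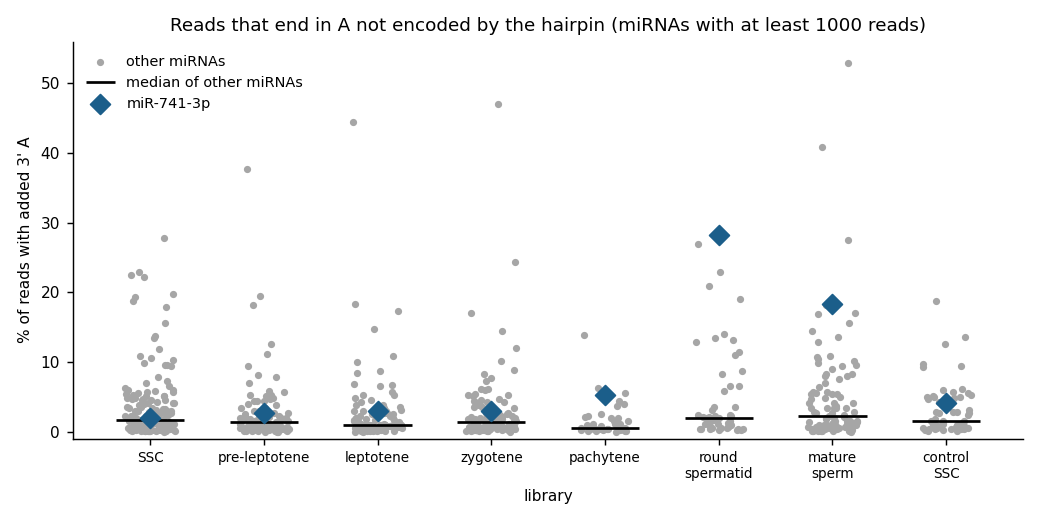
Share of reads that end in A not encoded by the hairpin, for miR-741-3p (blue diamonds) and each other miRNA with at least 1000 reads (grey points, median as a line), in 8 mouse libraries. miR-741-3p lies near the median in SSCs (1.90% against 1.73%) and above all 50 other miRNAs in round spermatids (28.3%).

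The +2 form carried A tails as well. Its A tail share was 4.67% in the SSC library, 6.96% in the pre-leptotene and 9.68% in the pachytene one. Control SSCs had 11.3% (interval 10.9 to 11.7), above pachytene and far above the other SSC culture. It was 29.0% in the round spermatid and 31.6% in the mature sperm library, whereas that of the annotated start went from 28.3% to 18.4%. The A tail share of the +2 form was higher than that of the annotated start in each of the 8 libraries. In round spermatids, though, the intervals overlapped (28.2 to 29.8 against 28.0 to 28.6). In mature sperm 13.9% of +2 reads ended in a pair of A, against 3.84% for the annotated start. The 22 nt form that lacks the last A was 28.3% of reads with the annotated start in mature sperm and 11.7% of +2 reads ended at the same base. On the 5p arm, A tails were 2.21% of 5646 reads in SSCs and 23.9% of 188 reads in mature sperm (interval 18 to 30.7), while 0 of 42 pachytene reads allowed up to 8.41%.

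In the knock-out experiment miR-741-3p, the targeted miRNA, had 80096 reads in control SSCs, 3 in the TALEN line and 5 in the CRISPR line. In RPM the levels were 55260, 3.56 (Poisson interval 0.733 to 10.4) and 8.36 (2.72 to 19.5). At the control level the lines would have held 46621 and 33030 reads, so the remaining reads were 0.00643% and 0.0151% of the control level. The log2 changes were -13.92 (interval -16.20 to -12.38) and -12.69 (-14.31 to -11.47). Of the 8 remaining reads 7 were the exact mature sequence.

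Every other product of the hairpin was at 0 in both lines or nearly so. miR-741-5p, with 282 reads in the control, had 0 in each, at least 54.7-fold lower in the TALEN line and at least 38.8-fold lower in the CRISPR line when 0 was set to 3 reads per library. The +2 form, with 20469 control reads, also had 0 in each, at least 3971-fold and 2814-fold lower. No read of 20 to 30 nt with an insertion or a deletion against the hairpin was found in either line, and the control had 1 of each kind. The edited sequence of the locus was not analysed here.

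No measured member of the cluster besides miR-741 was 2-fold lower in either line. In RPM 16% of 150 miRNAs were 2-fold lower in the TALEN line and 10.2% of 147 in the CRISPR line; in miRNA RPM it was 15.3% and 10.2%. Over 147 miRNAs measured in both comparisons, 13 were 2-fold lower in both lines and 11 higher, and of 24 family members 0 were lower and 3 higher. Both lines share 1 control library, so a low or high control value moves both. The higher members were miR-465a-5p (log2 2.80 in the TALEN line and 2.49 in the CRISPR line), miR-463-3p (2.72 and 2.15) and miR-883a-5p (1.30 and 1.50). Their partner arms did not pass 2-fold in either line. miR-463-5p changed by -0.17 and 0.22, and miR-883a-3p by 0.14 and 0.48. The joined 3p entry of miR-465a, b and c changed by 0.34 and 0.41. The miR-463 arms come from the hairpin nearest to Mir741, and only the 3p arm was higher. miR-871-3p, the next most abundant member, had log2 changes of -0.37 and -0.12. The fibroblast or stromal list summed to 13908 miRNA RPM in the control, 4853 in the TALEN line and 6482 in the CRISPR line, and its member miR-199a-3p, joined with miR-199b-3p, was lower by log2 -1.71 and -1.26; its part in the family values was not tested.

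The 2 wild type SSC libraries carry different strain labels, but the growth protocol given with both describes SSCs only from the F1 mouse, so whether their strains differ is not settled. They placed miR-741-3p at 35102 and 55260 RPM, a log2 difference of 0.65, or 0.26 in miRNA RPM. miR-741-5p differed by -0.52 and -0.91 on the same scales. These differences between wild type cultures are the nearest thing to a replicate spread here, and they are smaller than the SSC to pre-leptotene change of either arm.

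Reads of 23 nt that differ from mature miR-741-3p at 1 of positions 1 to 22 (counted from the mature 5′ end, with T for U as in the read lists) were 1.19% of such reads in SSCs and 1.23% in control SSCs, against 2.89% to 3.09% in the other 6 wild type libraries. The most frequent was G2T, inside the seed, at 0.845% (round spermatids) to 0.976% (mature sperm) in those 6, against 0.00700% in SSCs and 0.00273% in control SSCs. A7G was the most frequent in SSCs at 0.184% and lay at 0.00934% to 0.0287% in the other 7. In control SSCs T1C was the most frequent, at 0.113% against 0.0508% in SSCs, so the SSC pair differed from each other in single changes. By G2T and by the total share the libraries split into the SSC pair and the purified cells. What sets them apart was not tested, and library preparation and sequencing run cannot be told apart from cell type.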

How the data were processed

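Small RNA libraries of 20 samples were built from total RNA with an Illumina protocol and run on a HiSeq instrument, per the labels' protocols. The authors deposited, for each library, distinct read sequences with their raw, unnormalised read counts. The submitters' processing notes name Bowtie and, for mouse, mm10 and GRCm38. How adapters were trimmed is not given in the sources used here. Samples were grouped by title, 1 library per group, so no test between groups was made.

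Sequences of 18 to 26 nt were assigned by their first 18 nt to 1738 RefSeq mature miRNAs (GRCm38.p6), joined into 1667 entries where prefixes are shared. Closely related members such as miR-465a, b and c may exchange reads with errors. miRNA reads are those plus sequences exactly inside a GENCODE vM21 miRNA hairpin, a denominator chosen after the data had been seen. Depth runs from 597732 reads, where 1 read is 1.67 per 1000000 (RPM), to 25908109. Intervals are exact Poisson, Clopper-Pearson or conditional binomial (scipy 1.17.1). Changes count at 2-fold among miRNAs with at least 100 reads in either library. Counts of 0 were set to 3 for bounds. Tail bases follow the longest stretch equal to the hairpin, and a base equal to the hairpin counts as encoded. The hairpin was folded with RNAfold 2.7.2. The calls of 3p starts and of A tails after the annotated 3p end, and the 2-fold changes, were tested on simulated data. The other steps were not.

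Named are both arms, the 5 miRNAs most alike in profile, miRNAs that share a seed (none did), rank neighbours, the 5 most abundant sequences per arm, and members of marker and family lists; other miRNAs were named after their values were seen. The members, lists and tests were chosen with earlier results of these data known. Alternatives were another scaling, matching rule, length range, minimum count, filter and fold. Counting by the union of both criteria, by the first 18 nt in the hairpin and per mature-prefix reads was added after seeing the data.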

Additional observations from a re-analysis of the deposited data

Results flagged for a closer look

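Reads with the mouse miR-741-3p prefix also appear in libraries of other species, which no comparison above uses. There were 486 in rabbit testis of day 10, 413 at day 30, 407 at day 60, 560 at day 70, 446 at day 80, 377 at day 90, 467 at day 110 and 303 at day 180, and 107 in pig testis. That is 31.5 to 75.7 RPM in rabbit and 8.20 in pig, and the rat library, the closest relative of mouse, had 2 reads. These values lie above the limit that a count of 0 allows in the 9 rabbit and pig libraries. The exact mouse mature sequence made up 258 to 480 of the rabbit reads and 75 of the pig reads, and the +2 start was present with 38 to 67 reads in rabbit and 21 in pig. The mouse miR-871-3p prefix had 302 to 633 reads in the same rabbit libraries and 83 in pig, a ratio of miR-741-3p to miR-871-3p of 0.867 to 1.00 in rabbit and 1.29 in pig, against 1.47 to 5.59 in the 8 wild type mouse libraries. Whether these reads come from the animals sampled was not tested.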

How the results depend on the processing

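No paired analysis was possible because each group is 1 library. Scaling decided the direction of 3 of 6 stage steps of miR-741-3p. Log2 changes per 1000000 miRNA reads, then with size factors, then per 1000000 mature-prefix reads (chosen after seeing the data) were 1.51, 2.92 and 1.47 from SSC to pre-leptotene; 0.059, 0.080 and 0.069 to leptotene; -0.44, -1.07 and -0.42 to zygotene; -1.01, -0.85 and -0.63 to pachytene; -0.45, -0.0033 and -0.48 to round spermatid; and -2.16, -1.92 and -2.52 to mature sperm, where the main values were 2.34, -0.17, -0.86, -5.02, 0.12 and 0.20. The cause was not tested.

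With the full mature sequence these 6 steps were 2.36, -0.18, -0.88, -5.14, -0.39 and -0.11, so the last 2 reversed. With tags exactly in the hairpin, 5 steps moved, to 2.22, -0.84, -5.07, -0.25 (reversed) and 0.43, without pre-leptotene to leptotene. With either criterion (chosen after seeing the data) they were 2.24, -0.16, -0.84, -5.03 and 0.28, without pachytene to round spermatid. Tags of 20 to 24 nt gave 0.070 for that step. Matches that allow no tail miss the A-tailed reads of late stages by construction.

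The 5p share was 0.629% in SSC and 0.148% in mature sperm with tags exactly in the hairpin. The +2 share was 17.3% in SSC and 11.2% in pre-leptotene when the first 18 nt had to lie in the hairpin, and the A tail share of round spermatids was 25.6% at 20 to 24 nt. Which libraries stand for these shares was chosen after seeing the data. Both knock-out changes stayed within their intervals under every alternative run. Depth limits the 5p arm, at 42 reads in pachytene, and the residual reads of the lines.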

Other observations

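A few reads longer than 26 nt also lay exactly in the Mir741 hairpin: 115 in SSCs, 59 in pre-leptotene, 15 each in leptotene and zygotene, 7 in round spermatids, 2 in control SSCs, and 0 in pachytene, mature sperm and the knock-out lines. The longest was 41 nt. In SSCs 11 reads of 18 to 26 nt lay in the loop between the arms, and no other mouse library held any.

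Besides both miR-741 arms, 11 miRNAs were at least 2-fold lower in both knock-out lines, named here after their values were seen. They include miR-127-3p (log2 -1.71 in the TALEN line and -1.0 in the CRISPR line), miR-434-3p (-1.85 and -1.21), miR-409-5p (-1.80 and -1.09), miR-10b-5p (-1.90 and -1.20) and miR-181a-5p (-2.15 and -1.34). Both lines are set against the same control library. The fibroblast or stromal list was also lower in both, but its member miR-199a-3p, joined with miR-199b-3p, is itself among the 11. The list is therefore not separate from them, and its part was not tested.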
